A study of Mus musculus with 7 samples.

Results

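The Reg genes Reg3b, Reg3g, Reg1 and Reg2 encode small secreted proteins with a C-type lectin fold. Their 8 probe sets, 2 for each gene, were followed in mouse colon over the weeks after repeated TNBS enemas. The 4 genes were chosen by their signals on these same arrays, among 8251 genes with a symbol of their own, so their values are given as a description and were not tested. All 4 had a signal of at least 100 in their highest pool, as had 4316 genes in all. For Reg3g, Reg1 and Reg2 this held through TNBS pools alone, so that a higher signal in TNBS was part of how they came to be kept.

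All mice were female CD-1 outbred animals, 10 to 12 weeks old at the start, and the piece of colon taken lay 4 cm above the anus, give or take 0.5 cm. Colitis was provoked with TNBS, or trinitrobenzene sulphonic acid, which couples to proteins as a hapten and so sets off an immune reaction in the bowel wall. It was given 6 times by enema in ethanol, and control mice had saline enemas without ethanol, so effects of the hapten and of its solvent cannot be told apart. The week 6 TNBS pool held RNA from 6 mice killed 3 days after the last enema, and the TNBS pools of weeks 8, 10 and 12 held RNA from 4, 5 and 4 mice killed 2, 4 and 6 weeks after them. For saline, the week 6 pool (5 mice, 3 days) was run on 2 arrays, and the later pool joined 2 mice killed at 2 weeks with 2 killed at 4 weeks. As the design of the series states, week 6 TNBS was set against week 6 saline, and the 3 later TNBS pools against the later saline pool. Week 12 thus had no saline pool of its own time, and the 3 later comparisons share 1 saline array. Every group was a single pool, so no value has an error between mice. The spread between the 2 saline arrays of week 6, an SD of 0.29 on the log2 scale over 4316 genes (a factor of 1.22), is the sole measure of error and covers the array step alone.

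Reg genes take their name from regenerating pancreatic islets. In the mouse, Reg1 and Reg2 are best known as secretory products of pancreatic acinar cells, while Reg3b and Reg3g are made by intestinal epithelial cells, Paneth cells among them. Reg3g binds peptidoglycan and kills Gram-positive bacteria, and Reg3b also acts on Gram-negative bacteria. Bacterial signals through MyD88 and the cytokine interleukin 22, acting through the transcription factor STAT3, are known inducers of the Reg3 genes in the gut.

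All 4 genes lie in 1 cluster on mouse chromosome 6. In the RefSeq gene table of GRCm38.p6 the order is Reg3b, Reg3d, Reg3a, Reg2, Reg1, the pseudogene Gm52853 and Reg3g, so Reg3b and Reg3g stand at opposite ends and Reg1 and Reg2 are neighbours. The 250 bases before each gene's start are shown because the 4 genes divided into pairs over the time course. They are RefSeq sequences of the GRCm38.p6 build, read 5' to 3' on the gene's strand: chr6:78370635-78370884 on the plus strand for Reg3b, chr6:78468875-78469124 on the minus strand for Reg3g, chr6:78425733-78425982 on the plus strand for Reg1 and chr6:78404905-78405154 on the plus strand for Reg2. Capitals mark the letters TATAAA, the TATA box, and TTCNNNGAA, the core letters of a STAT site, on either strand.
Reg3b: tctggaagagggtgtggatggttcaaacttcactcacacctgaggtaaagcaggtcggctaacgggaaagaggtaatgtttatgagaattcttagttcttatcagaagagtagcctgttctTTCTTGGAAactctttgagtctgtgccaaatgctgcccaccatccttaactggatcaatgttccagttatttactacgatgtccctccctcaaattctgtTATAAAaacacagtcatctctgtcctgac
Reg3g: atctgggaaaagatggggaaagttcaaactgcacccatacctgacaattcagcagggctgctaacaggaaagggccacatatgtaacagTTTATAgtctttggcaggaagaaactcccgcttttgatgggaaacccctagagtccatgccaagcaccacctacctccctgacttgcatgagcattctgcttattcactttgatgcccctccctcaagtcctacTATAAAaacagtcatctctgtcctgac
Reg1: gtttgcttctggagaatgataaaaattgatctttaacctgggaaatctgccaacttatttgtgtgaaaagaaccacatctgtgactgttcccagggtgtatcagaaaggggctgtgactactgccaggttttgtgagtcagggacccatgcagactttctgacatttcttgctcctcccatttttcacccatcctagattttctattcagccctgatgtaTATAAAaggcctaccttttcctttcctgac
Reg2: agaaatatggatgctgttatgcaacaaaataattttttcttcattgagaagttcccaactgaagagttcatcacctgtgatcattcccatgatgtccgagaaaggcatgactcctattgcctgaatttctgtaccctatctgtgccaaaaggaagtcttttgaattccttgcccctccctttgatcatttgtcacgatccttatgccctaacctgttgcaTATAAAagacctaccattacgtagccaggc

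Every one of these windows held TATAAA on the gene's strand close to the start. It ended 24 bases before the start in Reg3b, 22 in Reg3g and 25 in Reg1 and in Reg2, and 12.4% of 32851 promoter windows of the same length held these letters on either strand. Reg3g had a further match on the opposite strand, 161 to 156 bases before the start. The STAT letters occurred in Reg3b, as TTCTTGGAA at 129 to 121 bases before the start, and had no match in the other 3 windows. Of all windows, 7.02% held them. The E-box CACCTG, shared by many basic helix-loop-helix factors, was found in Reg3b and Reg2 and in 17.2% of all windows. No motif overlapped another. In a global alignment the Reg3b and Reg3g windows had 69.2% of 250 bases identical, and the Reg1 and Reg2 windows 59.6%. The 4 pairs that cross these groups had 50.4% to 53.6%.

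Arrays were alike in overall level, with median signals of 51.8 to 61.2 and 45.4% to 49.2% of probe sets under the floor of 50. The 3'/5' probe ratio of beta-actin, a sign of RNA integrity, was 1.14 to 1.24 on the 3 arrays of week 6 and 0.798 to 0.818 on the 4 later ones. It thus differs between both saline pools and between week 6 TNBS and the later TNBS pools, but not within a matched comparison. A step in TNBS signal from week 6 to a later week cannot be told apart from this change between arrays. The tissue read as colon: 16 of 18 colon epithelium genes passed the filter, among them Krt20, Car1 and Cdx1, while Cdx2 and Guca2a did not. Of 13 small intestinal genes, 4 passed the filter (Apob, Slc5a1, Cps1 and Ada), and 6 read under 50 on every array, among them Lct, Apoa1, Apoa4, Fabp1 and Mttp. Because a stretch of colon was measured as a whole, fewer cells of a type and less RNA per cell cannot be told apart.

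Reg3b was high in the TNBS pools of weeks 6, 8 and 10 and within the range of the saline pools at week 12. Its probe set 96009_s_at read 2095, 4017, 4589 and 201 in the TNBS pools of weeks 6, 8, 10 and 12, against 162 and 170 on the week 6 saline arrays and 382 in the later saline pool. The first 3 TNBS pools thus stood far above every saline array, and the week 12 pool lay between both saline pools. Reg3b was 12.6-fold higher in TNBS than in saline at week 6, 10.5-fold higher at week 8 and 12.0-fold higher at week 10. At week 12 it was 1.90-fold lower.

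The Reg3b signals on 96009_s_at ordered the pools as week 10, week 8 and week 6 TNBS, later saline, week 12 TNBS and week 6 saline. Week 10 and week 8 TNBS differed by a log2 of 0.19, and week 12 TNBS and week 6 saline by 0.28, both within the array SD of 0.29. From week 6 to week 8 the TNBS signal was 1.92-fold higher, a smaller step than the 2.30-fold one between the saline pools. The week 12 pool was 22.8-fold below the week 10 pool. The later saline pool was 2.30-fold above the week 6 saline pool without TNBS, a difference of at least 2-fold that 0.857% of genes showed upward. Set against the other saline pool, Reg3b at week 12 was therefore 0.28 above saline on the log2 scale in place of 0.92 below it.

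The other Reg3b probe set was also high in the TNBS pools of weeks 6, 8 and 10, at a lower signal and with its peak at week 8. On 161890_f_at the TNBS pools read 391, 907, 764 and 47.7 at weeks 6, 8, 10 and 12, against 17.9 and 17.5 on the week 6 saline arrays and 68.3 in the later saline pool. It was at least 7.82-fold higher than saline at week 6, 13.3-fold higher at week 8 and 11.2-fold higher at week 10. The suffixes _s_at and _f_at mark probes that can also match related transcripts, so cross-hybridisation within the Reg3 genes was not tested.

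Reg3g was high in the same TNBS pools as Reg3b, and its differences at weeks 8 and 10, where both sides were measured, were smaller. Its probe set 96064_at read 140, 199, 249 and 5.1 in the TNBS pools of weeks 6, 8, 10 and 12, against 6.8 and 8.9 on the week 6 saline arrays and 67.6 in the later saline pool. The 3 earlier TNBS pools again stood above all saline arrays, and week 12 was under the floor of 50, like week 6 saline. Reg3g was at least 2.79-fold higher in TNBS at week 6, 2.94-fold higher at week 8 and 3.68-fold higher at week 10, and at least 1.35-fold lower at week 12. The step between weeks 6 and 8 was 1.42-fold and that between weeks 8 and 10 was 1.25-fold, both upward and both above the array SD. That SD covers 2 arrays of week 6 alone, and Reg3g in saline was also higher in the later pool than at week 6, so the first step is not particular to TNBS. The week 12 pool was at least 4.97-fold below the week 10 pool. Its second probe set, 162187_f_at, stayed under the floor on all 7 arrays, at 31.3, 31.6, 38.7 and 6.7 in the TNBS pools and 1.6 to 6.2 in saline, and so gave no measured difference.

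Reg1, the acinar protein once called lithostathine, was high in the TNBS pools of weeks 6 and 8 and at saline level from week 10. Its probe set 160213_at read 439, 451, 80.5 and 56.3 in the TNBS pools of weeks 6, 8, 10 and 12, against 76.1 and 57.1 on the week 6 saline arrays and 78.1 in the later saline pool. The first pair of TNBS pools stood apart from saline and the later pair overlapped it. Reg1 was 6.66-fold higher in TNBS at week 6 and 5.77-fold higher at week 8. The difference was 1.03-fold at week 10 and 1.39-fold, downward, at week 12. Weeks 6 and 8 differed by a log2 of 0.04, and the pools of week 10, later saline, week 6 saline and week 12 followed each other at steps of 0.04 to 0.24, all within the array SD. For Reg1 itself the week 6 saline arrays differed by a log2 of 0.41, more than that SD. Between weeks 8 and 10 the TNBS signal was 5.60-fold lower. The second probe set, 162312_f_at, stayed at 1.6 to 15.6 on all arrays.

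Reg2, the mouse paralogue next to Reg1, had the same course with a peak at week 8. Its probe set 95786_at read 290, 823, 15.7 and 6.0 in the TNBS pools of weeks 6, 8, 10 and 12, against 3.6 and 5.8 on the week 6 saline arrays and 2.6 in the later saline pool. The pools fell into 2 TNBS pools well above the floor and 5 arrays under it that have no order among themselves. Reg2 was at least 5.80-fold higher in TNBS at week 6 and at least 16.5-fold higher at week 8. Week 8 was 2.84-fold above week 6, and week 10 at least 16.5-fold below week 8. The second probe set, 161302_r_at, whose suffix marks a relaxed probe design, stayed under the floor, at 31.8, 1.6, 5.0 and 12.1 in the TNBS pools and 28.8 to 36.9 in saline.

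**Figure D1:**
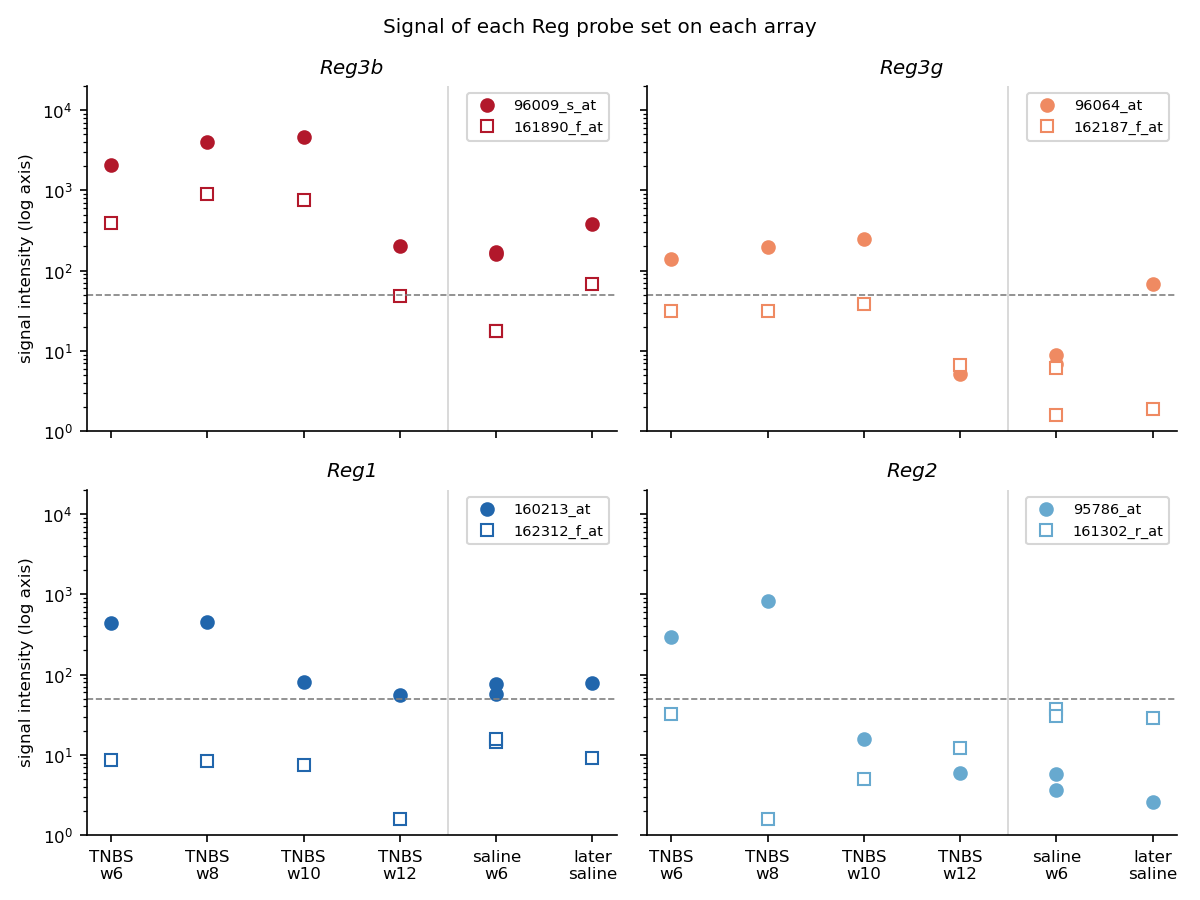
Signal intensity (log axis) of both probe sets of each Reg gene on each of 7 arrays; filled circles are the brighter probe set, open squares the other, and the dashed line is the floor of 50. Reg3b and Reg3g are high in the TNBS pools of weeks 6, 8 and 10, and Reg1 and Reg2 in those of weeks 6 and 8.

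The Reg3 genes and the pair Reg1 and Reg2 thus parted at week 10. All 4 genes were at least 2-fold higher in TNBS at week 6, where 2.55% of genes were, and again at week 8, where 1.53% were. At week 10 Reg3b and Reg3g were, while Reg1 and Reg2 were not, against 0.834% of genes, and at week 12 none of the 4 was, against 0.718%. The Reg3g calls depend on the setting: with a floor of 100 its log2 difference was 0.48 at week 6 and 0.99 at week 8, and with the mean of both probe sets it was 0.74, 0.78 and 0.94 at weeks 6, 8 and 10. With signals floored at 50 no Reg gene reached 2-fold lower, while 0.996%, 1.76%, 0.649% and 0.88% of genes did at weeks 6, 8, 10 and 12. For Reg3g at week 12 this is a bound, and its log2 difference was -1.44 with a floor of 25 and -1.09 with log2 of the value plus 50. The mean log2 difference of Reg3b and Reg3g was 2.57, 2.48, 2.73 and -0.68 at weeks 6, 8, 10 and 12. That of Reg1 and Reg2 was 2.64, 3.29, 0.02 and -0.24. The mean of the Reg3 pair minus that of the other pair was -0.07 at week 6, -0.81 at week 8, 2.71 at week 10 and -0.44 at week 12. These contrasts chose the genes and carry no test. These are means of floored values. Reg2 was under the floor in both pools at weeks 10 and 12, so its part there is no measured difference, and at week 6 both Reg3g and Reg2 are lower bounds, so the contrast then has no direction.

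**Figure D2:**
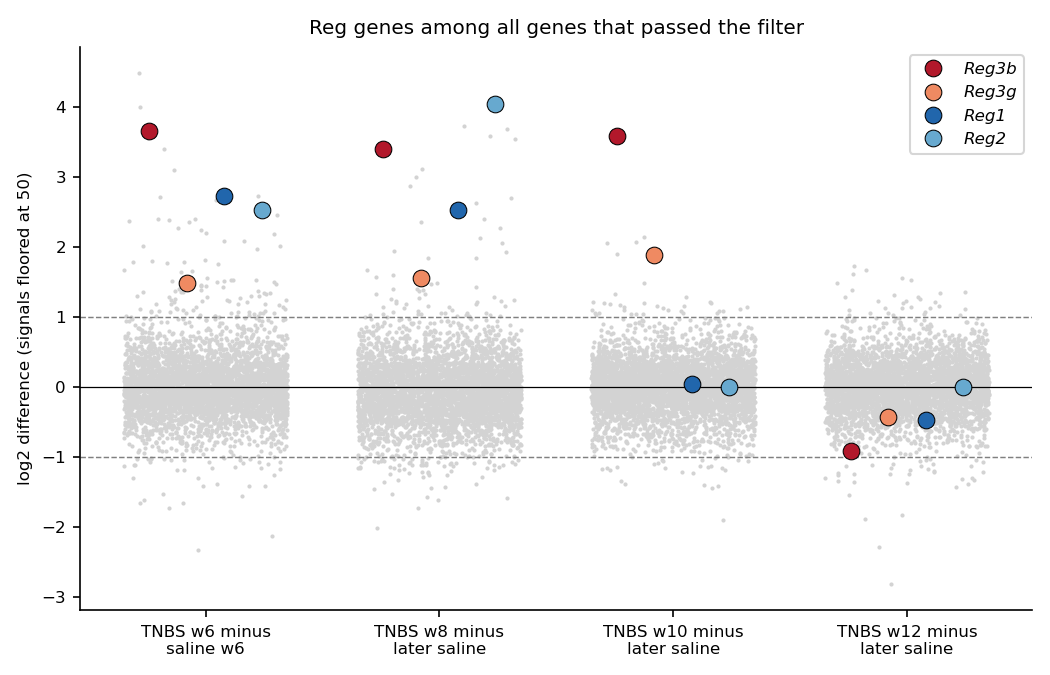
Log2 difference between each TNBS pool and its saline pool for 4316 genes (grey, spread sideways for legibility) and the 4 Reg genes (coloured); dashed lines mark 2-fold, and signals under 50 were set to 50. At week 10 Reg3b lies at 3.59 and Reg3g at 1.88, while Reg1 lies at 0.04 and Reg2 was under the floor in both pools.

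Of the other Reg genes Reg3a had probe sets. On 103954_at it read 38.9, 59.2, 10.5 and 7.2 in the TNBS pools of weeks 6, 8, 10 and 12, against 4.7 to 20.0 on the saline arrays, and it did not pass the filter. On this probe set the week 8 pool alone stood above the floor. The other probe set, 161642_f_at, read 7.3 in that pool and 0.4 to 2.4 on the other arrays. Reg3d and Reg4 were not analysed here.

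The genes nearest to each Reg gene were found by the root-mean-square distance between log2 signals over 6 pools, each gene centred on its own mean, among 4260 genes with a usual symbol. For Reg1 the nearest were Pnliprp1, a pancreatic lipase-related protein, at 0.22, Cel (carboxyl ester lipase) at 0.31, Ctrb1 (chymotrypsinogen) at 0.44, Plet1, an epithelial surface protein, at 0.55 and Cma2, a mast cell chymase, at 0.59. Reg2 stood at 0.54 from Reg1. For Reg2 they were Cela2a (an elastase) at 0.29, Pnliprp1 at 0.43, Cel at 0.51, Ctrb1 at 0.62 and Prss2 (a trypsinogen) at 0.71. All 5 encode digestive enzymes or their relatives, as do 3 of the 5 for Reg1.

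For Reg3g the nearest genes were Ceacam10, of the carcinoembryonic antigen family, at 0.35, Scd1, a fatty acid desaturase, at 0.40, the interferon-inducible GTPases Iigp1 at 0.43 and Gbp3 at 0.47, and Plet1 at 0.48. Ceacam10 read 525, 872, 525 and 193 in the TNBS pools of weeks 6, 8, 10 and 12, against 219 and 169 on the week 6 saline arrays and 273 in the later saline pool. No gene lay close to Reg3b. Its own root-mean-square deviation was 1.99, and the nearest were Reg3g at 1.07, Mcpt2, a mast cell chymase, at 1.08, Plet1 at 1.16, Ifit2 and Ceacam10 at 1.23 each and Iigp1 at 1.27. Seen from Reg3g, whose own deviation was 0.94, Reg3b stood at place 3190 and was farther than Reg1. A gene flat over all pools would lie 0.94 from Reg3g, nearer than Reg3b at 1.07 or Reg1 at 1.03. The place therefore shows no difference in course. On their brighter probe sets both Reg3 genes were highest in week 10 TNBS, then week 8 TNBS, week 6 TNBS and later saline. Week 12 TNBS and week 6 saline came last. Distances between the pairs were 1.03 (Reg3g and Reg1), 1.34 (Reg3g and Reg2), 1.47 (Reg3b and Reg1) and 1.61 (Reg3b and Reg2). The distance takes in amplitude as well as course, and values at the floor, in the Reg genes or in their neighbours, shorten it. Pnliprp1, for example, was under the floor in all but the TNBS pools of weeks 6 and 8.

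**Figure D3:**
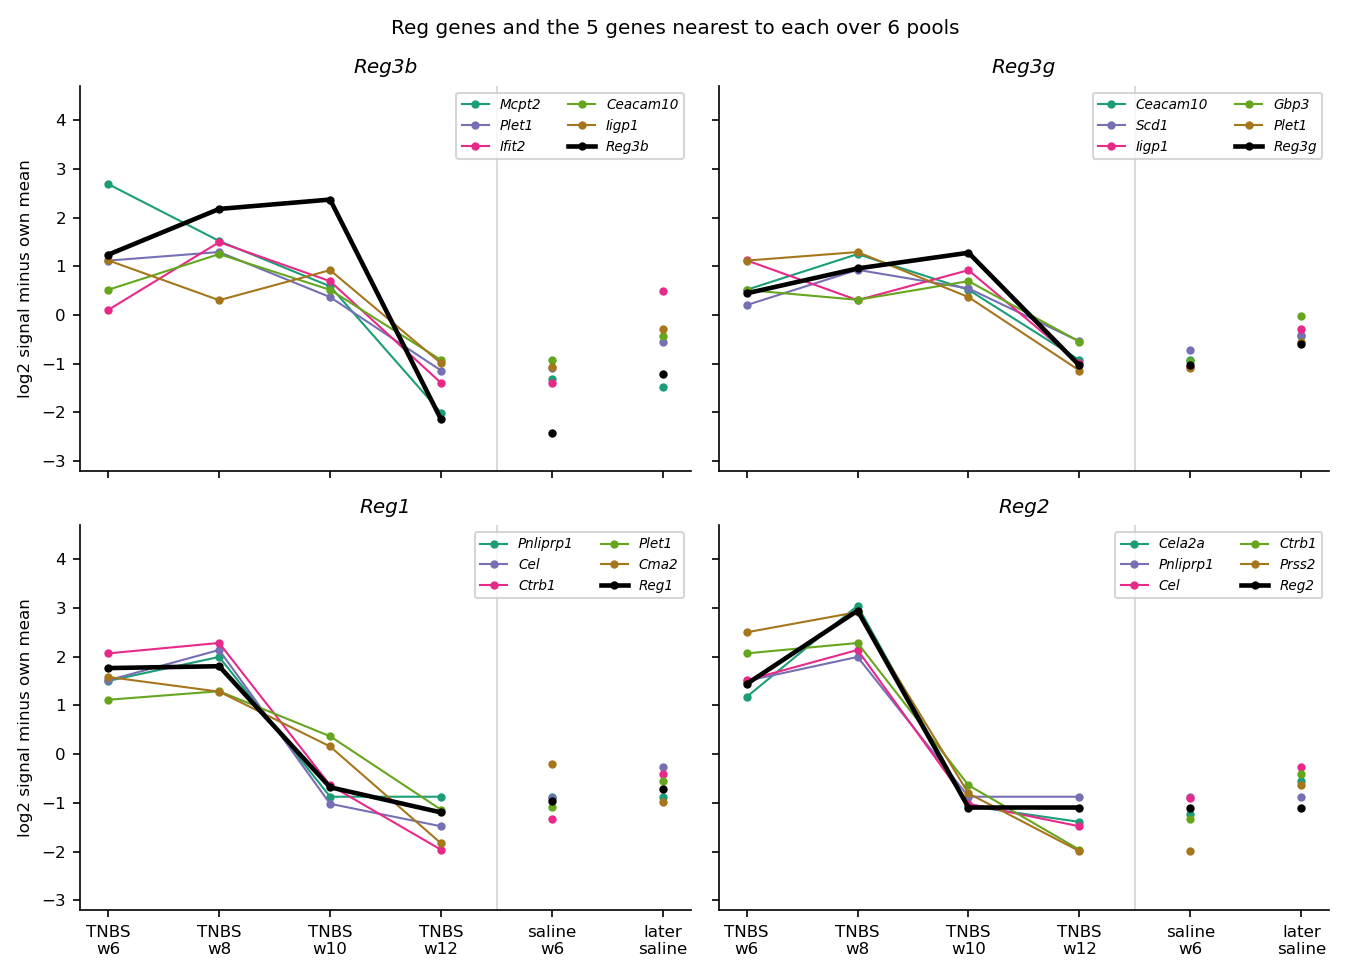
Log2 signal (floored at 50) minus the gene's own mean in the 6 pools for each Reg gene (black) and the 5 genes nearest to it (colours); lines join the TNBS pools by week and single points are saline pools. Reg1 and Reg2 run with digestive enzyme genes within 0.71, though Plet1 and the mast cell chymase Cma2 also lie near Reg1, at 0.55 and 0.59. The nearest of the 5 genes to Reg3b lies at 1.08.

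Some digestive enzyme genes were high in the pools in which Reg1 and Reg2 were high. Of 41 pancreatic genes listed, 22 were on the array and 14 passed the filter. At least 2-fold higher were 5 of 14 at week 6, 8 at week 8 and 0 at weeks 10 and 12, and at least 2-fold lower were 2, 0, 0 and 3. Of all genes, 2.55%, 1.53%, 0.834% and 0.718% were as much higher and 0.996%, 1.76%, 0.649% and 0.88% as much lower. Cela2a, Ctrl and Pnliprp1 reached 100 in TNBS pools but not in a saline pool, so their counts follow in part from the filter. At week 6 Pnliprp2 and Sst were the 2 lower ones, and Cela1, Klk1, Sycn, Clps and Pla2g1b were not 2-fold higher. The median log2 difference was 0.31, 1.72, -0.20 and -0.49 at weeks 6, 8, 10 and 12, against -0.02, -0.07, -0.0041 and 0.00 over all genes. Prss2 read 1126, 1502, 114 and 3.2 in the TNBS pools, against 16.2 and 3.2 on the week 6 saline arrays and 129 in the later saline pool. Cela2a read 296, 1084, 62.8 and 32.7, against 63.1 and 27.2, and 90.0. Ctrb1 read 1543, 1790, 236 and 94.4, against 188 and 114, and 276, and Pnliprp1 read 260, 365, 32.4 and 10.7, against 6.2 and 25.4, and 30.2. The summed signal of the 22 genes was 9978 to 17538 in the TNBS pools, highest at week 8, and 12014 to 13753 on the saline arrays, with Klk1, Sycn and Cela1, whose signals are high in saline too, making up most of it. Of pancreatic markers that did not pass the filter, Rnase1, a secreted ribonuclease, read 77.4, 78.7, 7.2 and 0.6 in the TNBS pools of weeks 6, 8, 10 and 12 and 1.2 to 4.2 on the saline arrays. Cuzd1, Rbpjl, Ins2 (insulin), Iapp (amylin) and Amy1, an amylase made mainly in salivary gland and liver, read under 50 on all 7 arrays. The part of pancreatic cells or RNA in the Reg1 and Reg2 result was not tested.

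Next come genes of the pathways known to induce Reg3 genes. Of 52 listed cytokines, receptors and signalling genes, 33 were on the array and 20 passed the filter. At least 2-fold higher were 3 at week 6 (Osmr, Socs1 and Il1b), 0 at week 8, Socs1 at week 10 and 0 at week 12, where 2.55%, 1.53%, 0.834% and 0.718% of all genes were. Tyk2 was at least 2-fold lower at week 8, where 1.76% of all genes were. Osmr, Socs1 and Il1b reached 100 in TNBS pools but in no saline pool. The median log2 difference was 0.18, 0.01, 0.19 and 0.07. Stat3 read 551, 281, 419 and 374 in the TNBS pools of weeks 6, 8, 10 and 12, against 435 and 420 on the week 6 saline arrays and 356 in the later saline pool. These were differences of at most 1.29-fold. Il6st, the shared receptor chain gp130, differed by at most 1.16-fold on its brighter probe set, Myd88 by at most 1.27-fold and Extl3, proposed as a Reg receptor, by at most 1.28-fold. Il6 was under the floor on every array. Il22 and Il22ra1 were not analysed here.

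Socs3, a feedback inhibitor that STAT3 induces, did not pass the filter on its brighter probe set. On its other probe set, 92232_at, it read 105, 50.5, 61.1 and 5.5 in the TNBS pools of weeks 6, 8, 10 and 12, against 5.3 and 6.7 on the week 6 saline arrays and 13.9 in the later saline pool. On this probe set the TNBS pools of weeks 6, 8 and 10 lay above all saline arrays, weeks 8 and 10 barely over the floor. The brighter one, 162206_f_at, read 87.7, 59.2, 57.2 and 46.5, against 29.5 and 34.3 on the week 6 saline arrays and 60.0 in the later saline pool, so weeks 8 and 10 did not exceed saline there. With both probe sets the largest difference was at week 6, at least 2.10-fold on 92232_at and at least 1.75-fold on 162206_f_at. Socs1, a related inhibitor, read 177, 104, 135 and 56.5, against 94.3 and 73.0, and 62.4, and was 2.13-fold, 1.67-fold and 2.16-fold higher at weeks 6, 8 and 10. Osmr, the oncostatin M receptor, was at least 3.44-fold higher at week 6. Cd14, a coreceptor for bacterial lipopolysaccharide, was 1.93-fold higher at week 6 and 1.57-fold at week 10, and Egfr, the epidermal growth factor receptor, was 1.97-fold higher at week 12. That Egfr fold sets 114.4 in TNBS against 58.0 in the later saline pool, while the week 6 saline arrays read 117.9 and 93.1.

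Among other secreted defence products, differences of 2-fold from the matched saline pool were mostly seen at week 6. Of 54 listed, 34 were on the array and 20 passed the filter. The number 2-fold or more above saline was 8, 1, 0 and 0 of 20 at weeks 6, 8, 10 and 12, and the number as far below it was 0, 1, 0 and 1. Of all genes, 2.55%, 1.53%, 0.834% and 0.718% were as far above saline and 0.996%, 1.76%, 0.649% and 0.88% as far below. Set against the other saline pool, 10 defence genes were at least 2-fold higher at week 6. Then 4 and 5 were as much lower at weeks 10 and 12, as were 67 and 87 of 4316 genes. The median log2 difference of the list was 0.40, 0.01, -0.06 and -0.23. Cxcl5, a neutrophil-attracting chemokine, and S100a8, a calprotectin subunit, were at least 6.64-fold and 4.03-fold higher at week 6 and under the floor in every later pool. Saa3, an acute phase protein, read 262, 75.5, 85.7 and 4.7 in the TNBS pools, against 19.4 and 11.1 on the week 6 saline arrays and 25.7 in the later saline pool. It was at least 5.24-fold, 1.51-fold and 1.71-fold higher at weeks 6, 8 and 10, so that these 3 pools exceeded saline in it as in Reg3b. S100a8, S100a9, Cxcl5 and Saa3, all among those counted as higher at week 6, passed the filter through TNBS pools alone. Their part in that count follows in part from the filter. Itln1, an intelectin that binds bacterial sugars, was 1.62-fold, 1.62-fold and 1.65-fold lower at weeks 6, 10 and 12 and 1.22-fold higher at week 8.

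**Figure D4:**
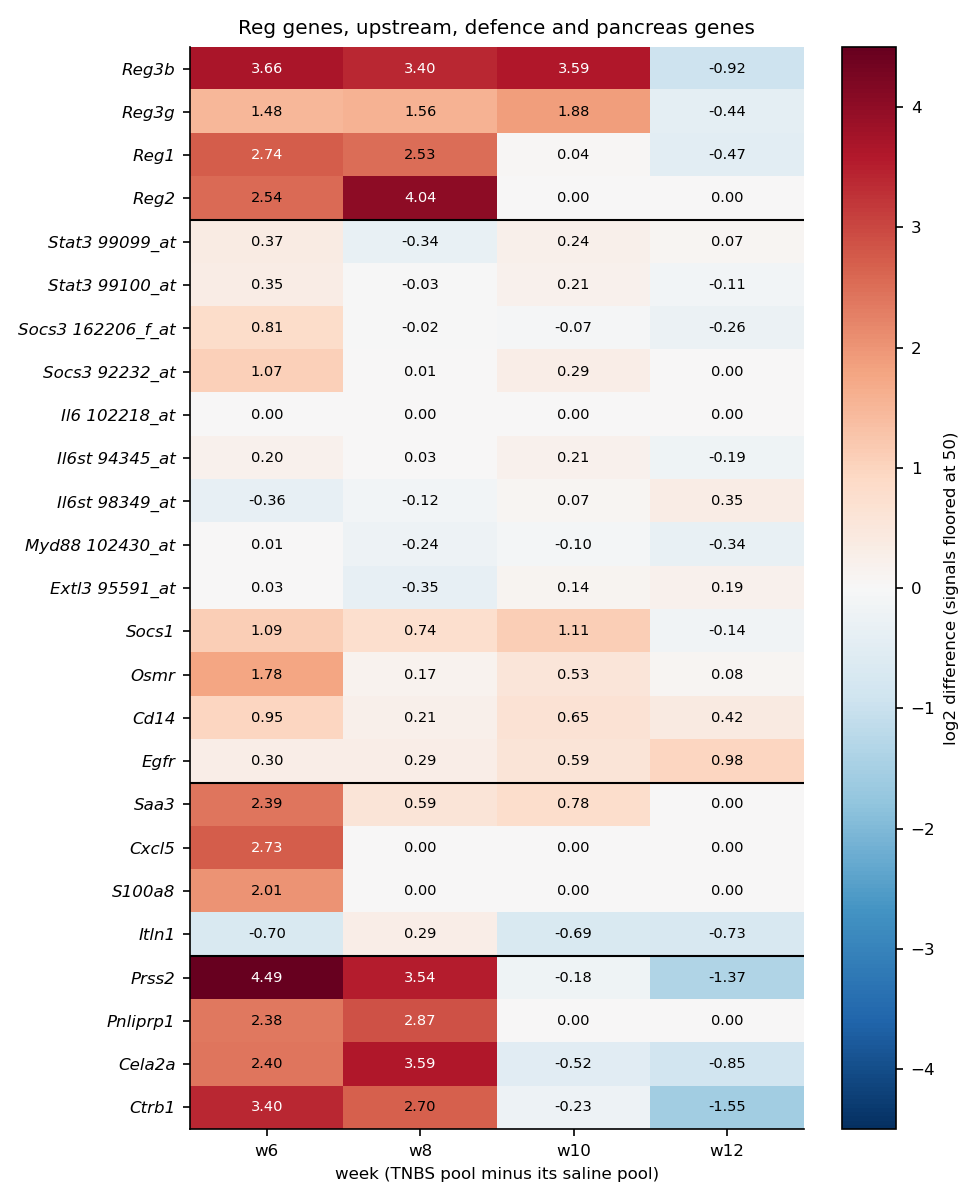
Log2 difference between each TNBS pool and its saline pool (columns, weeks 6 to 12) for the Reg genes, upstream genes with their probe sets, defence genes and pancreatic genes (rows, in blocks from top to bottom). A value of 0.00 can mean that both pools were under the floor of 50; the 4 pancreatic genes drawn, those of largest mean change in their list, are high at weeks 6 and 8 as Reg1 and Reg2 are, and Stat3 stays between -0.34 and 0.37.

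Markers of the other cells that could hold Reg transcripts are given for the same pools. Of the Paneth cell list 7 of 16 genes were on the array and 3 passed the filter, and the defensin Defa24 read 3.5 to 15.0 on all arrays. Mmp7, the protease that activates defensins, read 84.1 in the week 6 TNBS pool and 2.7 to 14.7 elsewhere. The summed Paneth list was 6524 to 12824 in the TNBS pools and 10209 to 12770 in saline, nearly all of it from Itln1, Cd24a and Pla2g2a. Pla2g2a, an antibacterial phospholipase, was 8.55-fold higher at week 6 and 7.08-fold lower at week 12. Of 15 goblet cell genes that passed, 0, 3, 0 and 0 were at least 2-fold higher at weeks 6, 8, 10 and 12, and the median log2 difference was -0.15, 0.54, -0.16 and -0.27. Tff2, a trefoil peptide, read 42.1, 134, 4.1 and 3.1 in the TNBS pools and 3.0 to 8.8 in saline, and it reached 100 in the week 8 TNBS pool alone. In the injury and regeneration list 6, 2, 0 and 0 of 15 genes reached 2-fold upward, with Plet1 4.59-fold, 3.59-fold and 1.89-fold higher at weeks 6, 8 and 10. In the leukocyte list 6, 3, 3 and 1 of 15 did. Cd53, a tetraspanin of leukocytes, was among them each time, and the mast cell proteases Mcpt1 and Mcpt2 were among them at weeks 6, 8 and 10. The genes at least 2-fold lower were Capn9 in the goblet list at week 6, by 3.18-fold, and Timp1 in the injury list at week 10, by at least 2.72-fold. No leukocyte gene was. Beside the goblet, injury and leukocyte counts, 2.55%, 1.53%, 0.834% and 0.718% of all genes were at least 2-fold higher at weeks 6, 8, 10 and 12. In the same weeks 0.996%, 1.76%, 0.649% and 0.88% were at least 2-fold lower. Top2a in the injury list and Ptprc, Itgax, Cd4 and Mcpt2 in the leukocyte list reached 100 in TNBS pools but not in a saline pool. Mcpt2 read 1292, 575, 302 and 21.4 in the TNBS pools, against 63.9 and 102 on the week 6 saline arrays and 72.2 in the later saline pool. The part of these cells in the Reg values was not tested.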

How the data were processed

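RNA pooled by group was measured on 7 Affymetrix arrays. Each probe set has 1 linear signal intensity per array, computed by the authors with Microarray Suite 5.0 and scaled to 150, per the labels. Trimmed means (2% at each end) were 150.1 on all arrays. For the array data no genome build is given in the sources used here. The platform annotation of 2016 gave 10833 of 12488 probe sets 1 symbol, 396 several and 1193 none, beside 66 controls. Symbols of 10817 were updated by Entrez identifier through the GRCm38.p6 RefSeq table.

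Signals under 50 were set to 50 and log2 was taken. Both week 6 saline arrays were averaged as 1 pool. Each gene was represented by its probe set of highest mean, and 4316 of 8251 genes were kept, those whose highest pool reached 100. With 1 pool per group no test was made and a gene was counted at 2-fold. A fold against a pool under the floor is written as at least so much. The steps were tested on simulated data and run in Python 3.11.15 with pandas 2.3.3, numpy 2.4.6 and Biopython 1.88 (global alignment, match 1, mismatch -1, gap opening -3, extension -1).

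The members and 10 lists (249 symbols, 173 on the array) were chosen with earlier results of these data known. Named genes are the 5 nearest to each member, up to 4 of each list with the largest mean change over 4 comparisons, and 8 upstream genes whatever their values. Other list genes were named after their values were seen. Alternatives covered the floor, the scaling, the probe sets, the saline pool, each week 6 saline array and the filter.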

Additional observations from a re-analysis of the deposited data

Results flagged for a closer look

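At week 12 the sign of 3 Reg genes was opposite to that at weeks 6, 8 and 10, though Reg1 at week 10, at 0.04, lay within the array SD of 0.29. The log2 difference between TNBS and saline was -0.92 for Reg3b and -0.47 for Reg1, and -0.44 for Reg3g, which is a bound because its TNBS signal was under the floor. Against the week 6 saline pool Reg3b was at 0.28 and Reg1 at -0.23, both within that SD, and Reg3g at 0.00 with both pools under the floor. Each effect rests on 1 pool, and the difference between weeks was not tested. A further signal lay outside the comparisons: on 103954_at Reg3a read 59.2 in the week 8 TNBS pool, where all saline arrays were at 20.0 or less. That is barely over the floor of 50, and its other probe set, 161642_f_at, read 7.3 in the same pool.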

How the results depend on the processing

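Of 150 alternative values of the Reg results, 113 moved by less than the array SD of 0.29 on the log2 scale (counts by at most 1.5 times) and 37 moved by more, and no difference of at least 2-fold changed sign. With the other saline pool Reg3b was at 2.46, 4.60, 4.79 and 0.28 at weeks 6, 8, 10 and 12, and Reg3g at 1.05, 1.99, 2.31 and 0.00. A floor of 25 put Reg3g at 2.48 (week 6) and -1.44 (week 12) and Reg2 at 3.54 (week 6) and 5.04 (week 8). A floor of 100 put Reg3g at 0.48, 0.99, 1.31 and 0.00 at weeks 6 to 12, Reg1 at 2.13 (week 6), 2.17 (week 8) and 0.00 (week 12), and Reg2 at 1.54 (week 6) and 3.04 (week 8). With log2 of the value plus 50, Reg3b was at 3.31 (week 6), Reg3g at 1.08 (week 8), 1.34 (week 10) and -1.09 (week 12), Reg1 at 2.07 (week 6) and 1.97 (week 8), and Reg2 at 0.32 (week 10). With the mean of probe sets, of which the second of Reg3g, Reg1 and Reg2 lay at the floor, Reg3b was at 3.31 (week 6), Reg3g at 0.74, 0.78 and 0.94 (weeks 6, 8 and 10), Reg1 at 1.37 and 1.26, and Reg2 at 1.27 and 2.02 (weeks 6 and 8). One Reg gene, Reg3b, was then at least 2-fold higher at week 10. Apart from the floor, by whose construction low genes change, the cause was not tested. Without either week 6 saline array, Reg1 at week 6 was at 2.53 to 2.94. No paired analysis was possible because every group but week 6 saline had 1 array.

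Counts over all genes (110, 66, 36 and 31 higher and 43, 76, 28 and 38 lower at weeks 6, 8, 10 and 12) varied more. Equal array medians raised the median gene to 0.10 at week 8 and 0.13 at week 10 and gave 114 higher and 31 lower at week 8 and 65 and 17 at week 10, while quantile normalization gave 74 and 45 at week 8 and 38 and 21 at week 10. The other saline pool gave 142, 77 and 58 higher at weeks 8, 10 and 12 and 71, 138, 67 and 87 lower at weeks 6, 8, 10 and 12. A floor of 100 gave 72, 22 and 10 higher (weeks 6, 10 and 12) and 27, 28, 8 and 17 lower. Log2 of the value plus 50 gave 64, 15 and 16 higher (weeks 6, 10 and 12) and 20, 19, 7 and 14 lower, and the mean of probe sets 17 lower at week 10. Leaving out the filter changed no count, by construction, since a 2-fold difference from the floor reaches 100. Of 72 counts over the gene lists, the other saline pool moved 26 by over 1.5 times or to or from 0, and every further setting at most 7. A floor of 100 left 0 upstream genes higher at weeks 6 and 10 (3 and 1 before) and 0 pancreatic genes lower at week 6 (2 before).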
